A study of Homo sapiens with 6 samples.

Results

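The 10 genes described here are effectors and targets of the integrated stress response: ATF4, DDIT3, TRIB3, NUPR1, CHAC1, SLC7A11, ASNS, PHGDH, DDIT4 and SESN2. They were chosen by name with earlier results of these data known, so the shares over all genes or introns beside their counts are a description and not independent support. Every intron whose interval lay inside 1 of them on its strand was taken, which gave 61 of the 241593 introns in the tables and 10 of the 26493 genes for which reads could be summed. The libraries came from K562 cells, a human leukaemia line with erythroid and megakaryocytic features, transduced with ZRSR2 shRNA sh1, with ZRSR2 shRNA sh2 or with a control shRNA, and each group held 2 libraries, numbered Exp1 and Exp2. ZRSR2 is a splicing factor of the minor spliceosome, which removes the rare U12-type introns and needs ZRSR2 to find their 3′ splice sites. Whether any intron of the 10 genes is of the U12 type was not determined, since their splice-site sequences were not read. The time after transduction was not given in the sources used here. Nothing in the labels said whether separate cultures stand behind the Exp1 and Exp2 libraries of a group. The p-values therefore rest on the spread between these libraries, which may be technical and which the retention tests pool over introns. All groups share the K562 background and the transduction itself, and with knockdown the cells still hold ZRSR2 RNA.

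The integrated stress response begins when a kinase such as PERK, GCN2, PKR or HRI phosphorylates the translation factor eIF2, which lowers general protein synthesis and raises translation of the ATF4 message. ATF4, a basic leucine zipper factor, then turns on genes for amino acid uptake and synthesis, for glutathione metabolism and for restraint of mTORC1 signalling, and, with DDIT3 (CHOP), genes linked to cell death. Since ATF4 is controlled mainly at translation, its RNA level shows only part of that response.

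ATF4 binds with a C/EBP partner to the C/EBP-ATF response element, and the human ASNS promoter is a known holder of such an element. The letters TGATGNAA were searched on both strands in windows running from 250 bases before to 50 after each gene's start in RefSeq promoters (GRCh38.p14), in which 8 of the 10 genes had an entry. Of these, 2 held a match, ASNS and CHAC1, against 4.46% of all 27305 genes in the table. A match is a description of the letters only. The windows of both genes are shown because the elements lie in a member with a level near that of the control, ASNS with sh1, and in the member with the largest fold change, CHAC1. The match is in capitals, 68 bases before the ASNS start (as read on its strand) and 209 bases before the CHAC1 start, where it reads on the opposite strand. The windows are chr7:97872359-97872658 (minus strand) and chr15:40953221-40953520 (plus strand).
ASNS: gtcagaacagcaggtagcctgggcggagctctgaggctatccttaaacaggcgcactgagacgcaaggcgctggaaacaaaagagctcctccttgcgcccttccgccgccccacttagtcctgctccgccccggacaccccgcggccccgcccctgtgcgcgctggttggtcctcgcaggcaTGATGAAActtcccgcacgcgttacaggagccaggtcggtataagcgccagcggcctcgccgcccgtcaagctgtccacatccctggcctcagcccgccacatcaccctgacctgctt
CHAC1: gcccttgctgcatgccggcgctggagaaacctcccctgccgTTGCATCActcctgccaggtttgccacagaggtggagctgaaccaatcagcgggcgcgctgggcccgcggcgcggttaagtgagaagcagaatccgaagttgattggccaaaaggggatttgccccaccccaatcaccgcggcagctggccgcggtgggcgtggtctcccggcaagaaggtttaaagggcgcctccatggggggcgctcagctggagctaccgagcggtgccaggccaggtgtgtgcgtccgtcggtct

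The tables gave, for each intron, the reads spliced across it and the reads over each of its boundaries with the exons. For each gene, spliced reads of its non-overlapping introns were added up and scaled to the library totals with TMM factors, giving CPM (reads per 1000000 reads summed). These sums held 76117579 to 92919990 spliced reads per library. ZRSR2 stood at 10.6 and 10.7 CPM with sh1 and 10.3 and 12.8 CPM with sh2, against 27.8 and 23.5 CPM in control cells, with a log2 fold change of -1.21 (SE 0.17), an adjusted p of 1.6e-06 by DESeq2 and one of 0.569 by edgeR. The 11 erythroid and megakaryocytic markers of K562 cells were measured in every library and summed to 5833 to 19928 CPM in the knockdown libraries, against 4626 to 6354 CPM in the control libraries. The 11 markers of lymphoid, monocytic, fibroblast and epithelial cells summed to 125 to 165 CPM in the knockdown libraries, against 177 to 180 CPM in the control libraries. EPCAM made up most of that sum, at 84.9 to 120 CPM in the knockdown and 111 to 124 CPM in the control libraries, while CD14 and CDH1 stayed under 1 CPM and MS4A1 did not pass the filter on low counts. The part of the marker shifts in the results below was not tested. In bulk RNA, fewer cells expressing a gene and less RNA per cell cannot be told apart.

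Across the 10 genes and over both shRNAs together, the members that restrain mTORC1 (DDIT4, SESN2) and handle cystine and glutathione (SLC7A11, CHAC1) stood highest over the control, and ATF4 itself was higher by a smaller amount. With sh2 alone SESN2, at a log2 fold change of 0.58, lay below ASNS (0.74) and PHGDH (0.72). All 10 passed the filter on low counts. Over both shRNAs, 5 of the 10 (ATF4, CHAC1, SLC7A11, DDIT4 and SESN2) had all 4 knockdown libraries above both control libraries, where the same held for 10% of the 17553 genes tested, and 0 of the 10 had all 4 below, where the background was 9.5%. The same 5 had an unadjusted edgeR quasi-likelihood p under 0.05 and were higher, against 4.41% of all genes, and 0 were lower, against 3.85%. With a term for the experiment number DDIT3 and PHGDH joined them, giving 7 of the 10 higher and 0 lower at an unadjusted p under 0.05, against 7.85% and 6.49% of all genes, and 0 after adjustment. The median log2 fold change of the 10 was 0.46, beside -0.010 over all genes tested. After Benjamini-Hochberg adjustment edgeR called 0 of the 10 and 0% of all genes, the members' adjusted p running from 0.569 to 0.988, while 1449 of all genes (8.25%) had an unadjusted p under 0.05. DESeq2 called 2 members higher over both shRNAs (SLC7A11 and DDIT4), against 0.861% of the genes to which it gave an adjusted p. It called 4 with sh1 (SLC7A11, DDIT4, CHAC1 and SESN2), against 0.581%, and 2 with sh2 (SLC7A11 and DDIT4), against 0.806%. DESeq2 called no member lower in any of these contrasts, where the background was 0.505%, 0.21% and 0.481%, and both contrasts with a single shRNA share the same control libraries.

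**Figure D1:**
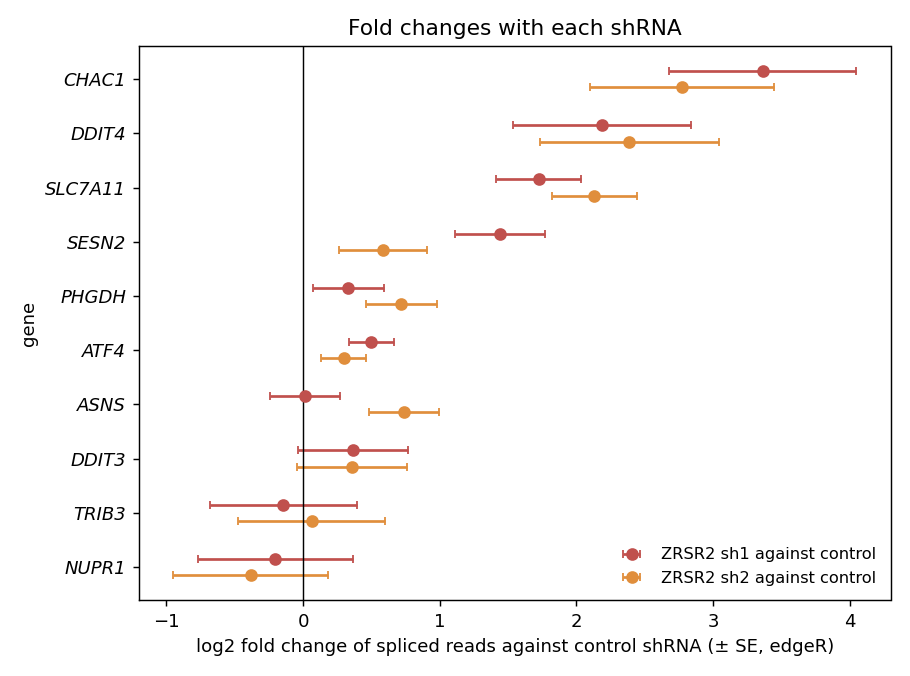
Log2 fold change of spliced reads against control shRNA for each gene (x axis; bars are the standard error of the edgeR fit), with sh1 in red above sh2 in orange. CHAC1, DDIT4 and SLC7A11 stand at 1.72 or more with each shRNA, while TRIB3 and NUPR1 lie within 1 standard error of 0.

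ATF4, the central transcription factor of the response (chr22:39520559-39522686, plus strand), stood modestly higher after knockdown. Its spliced reads came to 101 and 81.5 CPM with sh1 and 80.5 and 77.9 CPM with sh2, against 61.1 and 67.8 CPM in control cells, so that every knockdown library lay above both control libraries. The group means were 91.2 ± 13.7 CPM with sh1 and 79.2 ± 1.82 CPM with sh2, against 64.5 ± 4.70 CPM in the control (SD, n = 2 each). The log2 fold change over both shRNAs was 0.40 (SE 0.14), with an unadjusted edgeR p of 0.030, an edgeR adjusted p of 0.569 and a DESeq2 adjusted p of 0.285. The value rests on the single ATF4 intron in the tables.

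DDIT3, the pro-apoptotic factor CHOP that ATF4 induces (chr12:57516588-57520517, minus strand), followed the experiment number more than the shRNA. It stood at 43.7 and 25.3 CPM with sh1 and at 42.9 and 25.8 CPM with sh2, against 34.5 and 19.1 CPM in control cells. The groups overlapped, and each Exp1 library exceeded the Exp2 library of its group. Compared within an experiment, DDIT3 was 1.27 times (sh1) and 1.24 times (sh2) the control in Exp1 and 1.33 and 1.35 times the control in Exp2. Over both shRNAs its log2 fold change was 0.36 (SE 0.35; edgeR adjusted p 0.799). With a term for the experiment number it was 0.37 (SE 0.11), with an unadjusted edgeR p of 0.0166 and an adjusted p of 0.289.

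TRIB3, a pseudokinase induced by ATF4 and CHOP that feeds back on them (chr20:380760-397559, plus strand), had no common direction. It measured 124 and 68.8 CPM with sh1 and 142 and 80.5 CPM with sh2, against 159 and 54.2 CPM in control cells. The control libraries were the highest and the lowest of the 6. Within Exp1 both knockdown libraries lay below the control, at 0.781 (sh1) and 0.896 (sh2) times its level, and within Exp2 both lay above it, at 1.27 and 1.48 times. Over both shRNAs its log2 fold change was -0.039 (SE 0.47; edgeR adjusted p 0.988).

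NUPR1, a small stress-induced chromatin-associated protein (chr16:28532708-28538974, minus strand), was barely detected. Its 2 introns together held 75 and 52 spliced reads with sh1 and 56 and 51 with sh2, against 95 and 53 in control cells. That is 0.965 and 0.567 CPM with sh1 and 0.701 and 0.650 CPM with sh2, against 1.19 and 0.573 CPM in the control, and the groups overlapped. The log2 fold change was -0.29 (SE 0.49; edgeR adjusted p 0.884).

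CHAC1, a glutathione-degrading enzyme whose transcript is a sensitive marker of ATF4 activity (chr15:40953471-40956512, plus strand), had the largest fold change of the 10 at a very low level. Its single intron held 95 and 54 spliced reads with sh1 and 40 and 55 with sh2, against 6 and 9 in control cells. The corresponding values were 1.22 and 0.589 CPM with sh1 and 0.501 and 0.701 CPM with sh2, against 0.0753 and 0.0973 CPM in the control, with no overlap between the knockdown and the control libraries. With sh1 the fitted log2 fold change was 3.36 (SE 0.68), with sh2 it was 2.77 (SE 0.67), and over both it was 3.07 (SE 0.64). DESeq2 called CHAC1 with sh1 (adjusted p = 0.0128), not with sh2 (adjusted p = 0.0561), and gave no adjusted p over both shRNAs, where the edgeR adjusted p was 0.569. The sh1 call was lost in 5 of the 6 fits that left out 1 library, all but the one without sh2 replicate 1 (adjusted p = 0.049), and over both shRNAs the adjusted p ran from 0.0218 to 0.379 in those fits.

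SLC7A11, the transporter subunit of the cystine-glutamate exchanger xCT (chr4:138164097-138242349, minus strand), had the lowest DESeq2 adjusted p over both shRNAs of the 9 members given one. Its spliced reads stood at 27.7 and 21.8 CPM with sh1 and 34.6 and 31.1 CPM with sh2, against 5.34 and 9.63 CPM in control cells. The lowest knockdown library was above 2 times the higher control library. Group means were 24.7 ± 4.16 CPM with sh1 and 32.8 ± 2.48 CPM with sh2, against 7.48 ± 3.04 CPM in the control (SD, n = 2 each). With sh1 its log2 fold change was 1.72 (SE 0.31), against 2.13 (SE 0.31) for sh2. Over both shRNAs it was 1.93 (SE 0.29), with a DESeq2 adjusted p of 6.57e-08, an unadjusted edgeR p of 0.000321 and an edgeR adjusted p of 0.569. With a term for the experiment number its unadjusted edgeR p was 0.000417 and its adjusted p 0.278. In that fit DDIT4 had the lowest p of the 10. The DESeq2 call over both shRNAs held in 6 of 6 fits that left out 1 library, the highest adjusted p being 9.1e-05, and with sh1 alone it was lost without sh1 replicate 1 (adjusted p = 0.164). The difference ran along the whole gene: each of its 11 introns had a higher CPM of spliced reads in every knockdown library than in both control libraries, reads that neighbouring introns can share.

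ASNS, which makes asparagine from aspartate (chr7:97851677-97928441, minus strand), stood highest in 1 sh2 library. It stood at 192 and 158 CPM with sh1 and 363 and 215 CPM with sh2, against 174 and 171 CPM in control cells. The sh1 libraries lay on both sides of the control libraries, and both sh2 libraries lay above them. The fitted log2 fold change of ASNS was 0.016 (SE 0.26) for sh1 and 0.74 (SE 0.26) for sh2, and sh2 gave an unadjusted edgeR p of 0.024, an edgeR adjusted p of 0.572 and a DESeq2 adjusted p of 0.215. With 1 library left out, the edgeR log2 fold change of ASNS with sh2 ran from 0.31 to 1.07.

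PHGDH, the first enzyme of serine synthesis from glycolysis (chr1:119711934-119744215, plus strand), gave 64.2 and 61.8 CPM with sh1 and 80.6 and 84.5 CPM with sh2, against 36.4 and 63.8 CPM in control cells. The sh2 libraries lay above both control libraries and the second sh1 library did not. Against the control, PHGDH had a log2 fold change of 0.33 (SE 0.26) for sh1 and 0.72 (SE 0.26) for sh2, and edgeR adjusted p of 0.814 and 0.574. With a term for the experiment number its log2 fold change over both shRNAs was 0.56 (SE 0.20), with an unadjusted edgeR p of 0.0288 and an adjusted p of 0.311. DESeq2 gave PHGDH an adjusted p of 0.389 over both shRNAs with all libraries. With 1 library left out, its edgeR log2 fold change over both shRNAs ran from 0.19 to 0.996.

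DDIT4 (REDD1), an inhibitor of mTORC1 that acts through the TSC complex (chr10:72273924-72276036, plus strand), stood about as far above the control in both experiments although its level differed between them. It measured 71.5 and 28.3 CPM with sh1 and 84.6 and 29.9 CPM with sh2, against 14.7 and 7.23 CPM in control cells. Within Exp1 the ratio to the control was 4.86 with sh1 and 5.76 with sh2, and within Exp2 it was 3.92 with sh1 and 4.14 with sh2. On the log2 scale the fitted fold change was 2.19 (SE 0.65) for sh1 and 2.39 (SE 0.65) for sh2. DESeq2 gave adjusted p of 0.0291 and 0.00848, and 0.00264 over both shRNAs, where the edgeR adjusted p was 0.569. The DESeq2 call over both shRNAs held in 5 of 6 fits that left out 1 library and was lost without control replicate 2 (adjusted p = 0.0532). With a single shRNA it held in 4 of 6, and it was lost without the first library of that shRNA or control replicate 2, with adjusted p of up to 1 for sh1 and 0.67 for sh2. With a term for the experiment number the unadjusted edgeR p over both shRNAs was 6.1e-06 and the adjusted p 0.107.

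SESN2, a leucine sensor of the sestrin family that also restrains mTORC1 (chr1:28259518-28282491, plus strand), was highest in a single sh1 library. It stood at 92.9 and 45.7 CPM with sh1 and 34.5 and 41.9 CPM with sh2, against 24.7 and 26.3 CPM in control cells, and the 4 knockdown libraries did not overlap the controls. Its fitted log2 fold change was 1.44 (SE 0.33) for sh1 and 0.58 (SE 0.32) for sh2. DESeq2 called SESN2 with sh1 (adjusted p = 0.0128) and gave an adjusted p of 0.061 over both shRNAs and 0.562 with sh2. The sh1 call held in 4 of 6 fits that left out 1 library and was lost without sh1 replicate 1 or control replicate 1, where the highest adjusted p was 0.973. Of its 9 introns, 8 had a higher CPM of spliced reads in every knockdown library than in both controls.

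**Figure D2:**
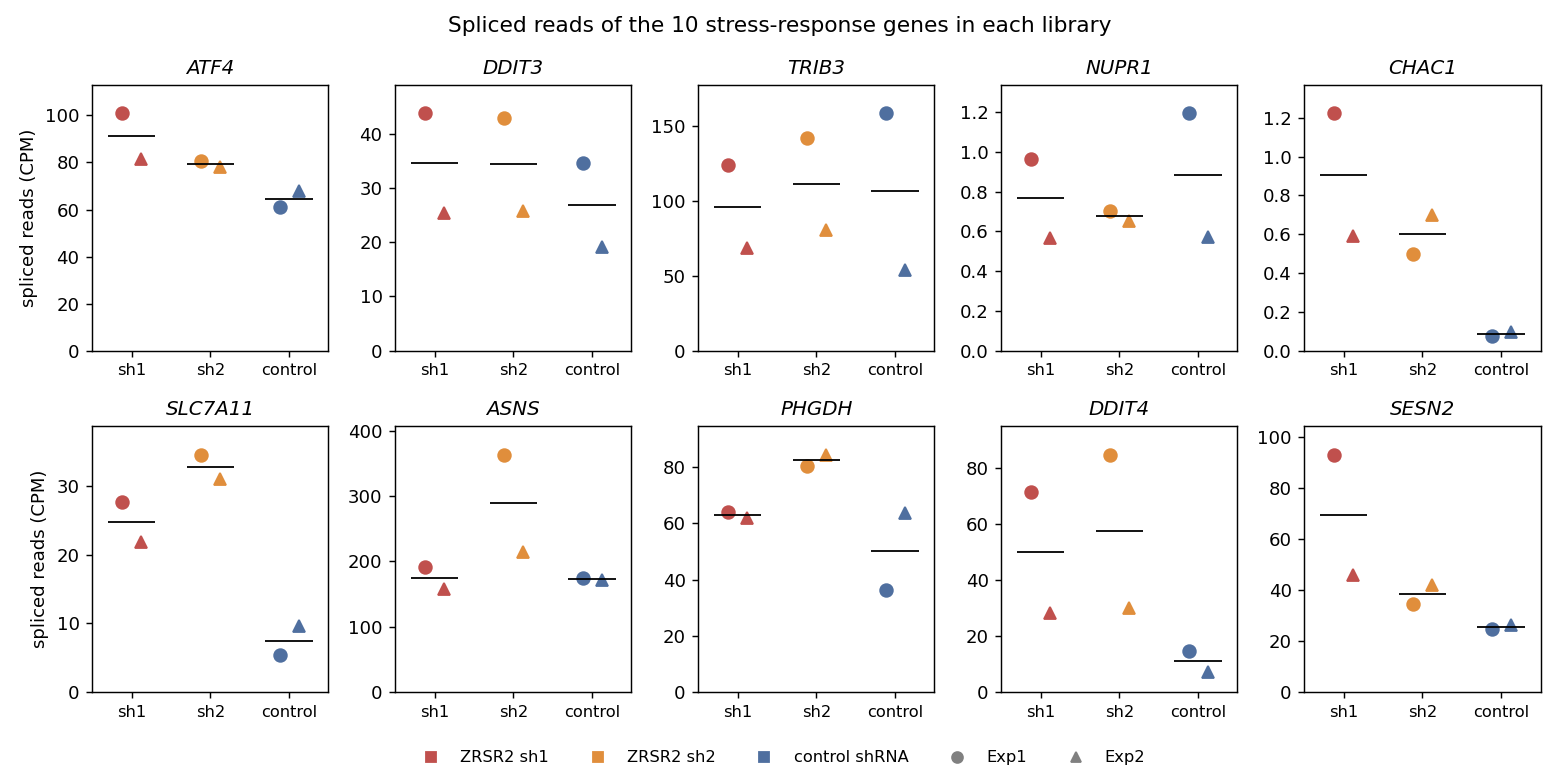
Spliced reads per gene in each library (y axis, CPM, from 0), for ZRSR2 sh1, ZRSR2 sh2 and control shRNA; circles are Exp1, triangles Exp2 and bars the mean of 2 libraries. SLC7A11 stands at 21.8 to 34.6 CPM after knockdown and at 5.34 and 9.63 CPM in the control, while the TRIB3 control libraries span 54.2 to 159 CPM.

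Levels between genes are compared here per summed intron, since a gene with more introns collects more spliced reads. On that scale, averaged over the 6 libraries, ATF4 came first at 78.3 CPM per intron, followed by TRIB3 at 26.2, DDIT4 at 19.7, ASNS at 16.3, DDIT3 at 15.9, PHGDH at 5.93, SESN2 at 4.92, SLC7A11 at 1.97, CHAC1 at 0.531 and NUPR1 at 0.387. In control cells alone, DDIT4 held 7.35 and 3.61 CPM per intron and lay below ASNS (13.4 and 13.2) and DDIT3 (17.3 and 9.53). TRIB3 held 39.6 and 13.6 CPM per intron there, a span that overlaps that of DDIT3. CHAC1 held 0.0753 and 0.0973 CPM per intron in control cells and lay below NUPR1 (0.596 and 0.286), so the last 2 places turn. Over all 6 libraries the ranges of neighbours in this order overlapped, except between ATF4 and TRIB3 and between DDIT3 and PHGDH.

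The members differed between Exp1 and Exp2 in different ways. In control cells the Exp1 level divided by the Exp2 level was 2.92 for TRIB3, 2.08 for NUPR1, 2.03 for DDIT4 and 1.81 for DDIT3, and it was 0.554 for SLC7A11 and 0.571 for PHGDH. The ratios to the control within an experiment kept 1 direction in all 4 pairs for ATF4 (1.15 to 1.65), DDIT3, CHAC1 (6.05 to 16.2), SLC7A11 (2.26 to 6.48), DDIT4 and SESN2 (1.40 to 3.77). They did not for TRIB3, NUPR1 (0.588 to 1.13), ASNS (0.920 to 2.08) and PHGDH (0.969 to 2.21).

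**Figure D3:**
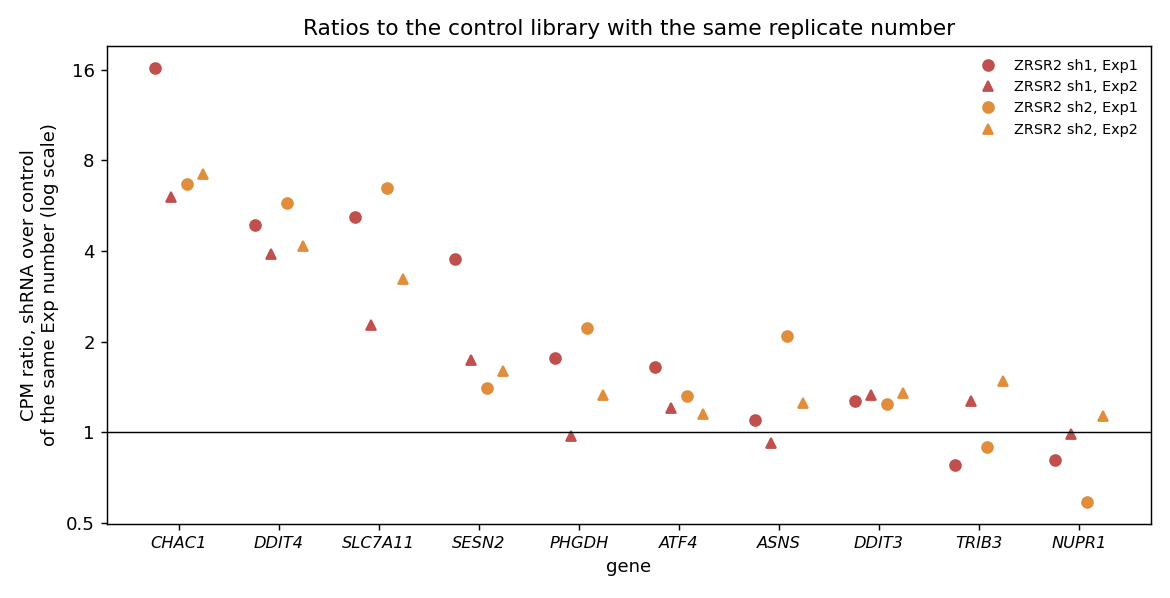
CPM of each knockdown library over the control library with the same Exp number (y axis, log scale; the line is a ratio of 1), with sh1 in red and sh2 in orange, circles for Exp1 and triangles for Exp2. DDIT4 lies between 3.92 and 5.76 in all 4 pairs, and TRIB3 lies below 1 in Exp1 and above 1 in Exp2.

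Set directly against each other, sh1 and sh2 differed most at SESN2, higher with sh1, and at ASNS, lower with sh1. Of the 10, 2 had an unadjusted edgeR p under 0.05, where 5.36% of all genes did. SESN2 had a log2 fold change of 0.86 (SE 0.32) for sh1 over sh2 and ASNS one of -0.73 (SE 0.26), with unadjusted edgeR p of 0.034 and 0.027. Both had an edgeR adjusted p of 0.910, and DESeq2 adjusted p were 0.392 and 0.396. With all 6 libraries, neither tool called a member between the shRNAs, where DESeq2 called 0.224% of genes higher and 0.188% lower with sh1. With 1 library left out, the edgeR log2 fold change ran from 0.26 to 1.28 for SESN2 and from -1.04 to -0.30 for ASNS. Leaving out a library of either shRNA leaves that group without a spread of its own, so such fits cannot decide this difference.

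Retention of an intron is the deposited percentage named MSI, in which boundary reads are divided by the sum of boundary reads and 2 times the spliced reads. After knockdown, introns of ASNS were more retained in all 4 libraries, at a few percent of the RNA or less, together with 1 intron of PHGDH and, with sh2, 1 of TRIB3. Of the 61 introns in the 10 genes, 59 had at least 20 reads on average and were tested for boundary against spliced reads with edgeR's quasi-likelihood test. The spread in that test was estimated over introns together. An intron's p-value therefore takes little account of its own scatter between libraries of a group. Over both shRNAs, 5 were more retained at an adjusted p under 0.05, against 0.33% of all 134078 introns tested, and 0 were less retained, against 0.0209%. An unadjusted p under 0.05 was reached by 11 of the 59, against 4.44%. With sh1 alone 5 were more retained, against 0.292%, and with sh2 alone 2, against 0.266%, while 0 were less retained, against 0.0104% and 0.0201%. The 5 over both shRNAs and the 5 with sh1 each count 2 overlapping forms of 1 ASNS intron. With a term for the experiment number the sh2 count was 4. Between sh1 and sh2, 0 of the 59 passed the edgeR test, where 0.0246% of all introns were more and 0.0097% less retained with sh1 and 3.83% had an unadjusted p under 0.05. All 4 knockdown libraries lay above both controls for 15 of the 59 introns, where the background was 7.28%, and below both for 1, where it was 4.11%. The log2 fold change of boundary over spliced reads was positive for 44 of the 59, beside 55.5% of all introns, and its median was 0.51 beside 0.084. This sign count and median take in introns with hardly any boundary reads, whose fitted values say nothing about retention. The NUPR1 intron at chr16:28538210-28538795 had 0 boundary reads in every library and still a fitted value of 0.42 (SE 6947). With boundary and spliced reads pooled over the summed introns of a gene, 4 of the 10 genes (DDIT3, TRIB3, ASNS and PHGDH) had all knockdown libraries above both controls, where the background was 10.7%. The median of this pooled retention over all genes was 2.78% and 2.38% with sh1 and 2.96% and 2.73% with sh2, against 2.24% and 2.34% in control cells.

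ASNS held 4 of the 5 more retained introns, of which 2 are overlapping forms of 1 intron, as given below. Of the 332 genes with such an intron, 88 had at least 2, with overlapping forms counted separately. The intron at chr7:97869180-97869777, the second from the 5′ end of the 12 non-overlapping introns tested, was retained at 4.66% and 1.98% with sh1 and 2.58% and 2.33% with sh2, against 0.649% and 0.924% in control cells. These percentages rest on 107 and 47 boundary reads with sh1 and 125 and 66 with sh2, against 16 and 25 in the control, beside 1094 to 2365 spliced reads. The fitted change of boundary over spliced reads was 1.84 on the log2 scale (SE 0.41; edgeR adjusted p 0.00333). The first of the 12 has alternative 5′ ends in the tables, chr7:97869814-97871718 and chr7:97869814-97872350, which share a boundary and have like spliced counts (968 and 904 in the first sh1 library), so that both are read as 1 observation. The shorter form was retained at 5.14% and 1.57% with sh1 and 3.03% and 2.04% with sh2, against 0.541% and 1.07% in control cells, and the longer form at 4.74% and 1.57% with sh1 and 3.21% and 2.11% with sh2, against 0.617% and 0.846%. Their edgeR adjusted p were 0.00749 and 0.00361, and the longer form was also called with sh2 alone (0.0447).

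Further along the gene, the intron at chr7:97854681-97855352 was retained at 4.55% and 1.92% with sh1 and 2.11% and 2.11% with sh2, against 0.886% and 0.837% in control cells (log2 fold change 1.58, SE 0.41, adjusted p 0.0322 by edgeR). In each of the 4 called ASNS introns the first sh1 library was the highest and both controls the lowest. Reads covered 100% of each of these 4 introns in all 6 libraries, so a limit on coverage keeps them. Their calls were nevertheless lost under such a limit. Among introns with a covered fraction of at least 0.95, 0 of the 18 in the genes described here were called more retained. This held over both shRNAs, with sh1 alone and with sh2 alone. The other ASNS introns were not called without that limit either. The third of the 12, at chr7:97864497-97868907, stood at 1.95% and 2.91% with sh1 and 2.496% and 2.57% with sh2, against 2.65% and 2.76% in the control. The most retained tested ASNS interval, chr7:97864497-97872350, spans the first 3 of the 12 and had 1 to 9 spliced reads a library, so its 69.0% to 98.4% with knockdown, against 77.3% and 71.9%, describes a junction that was rarely used.

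**Figure D4:**
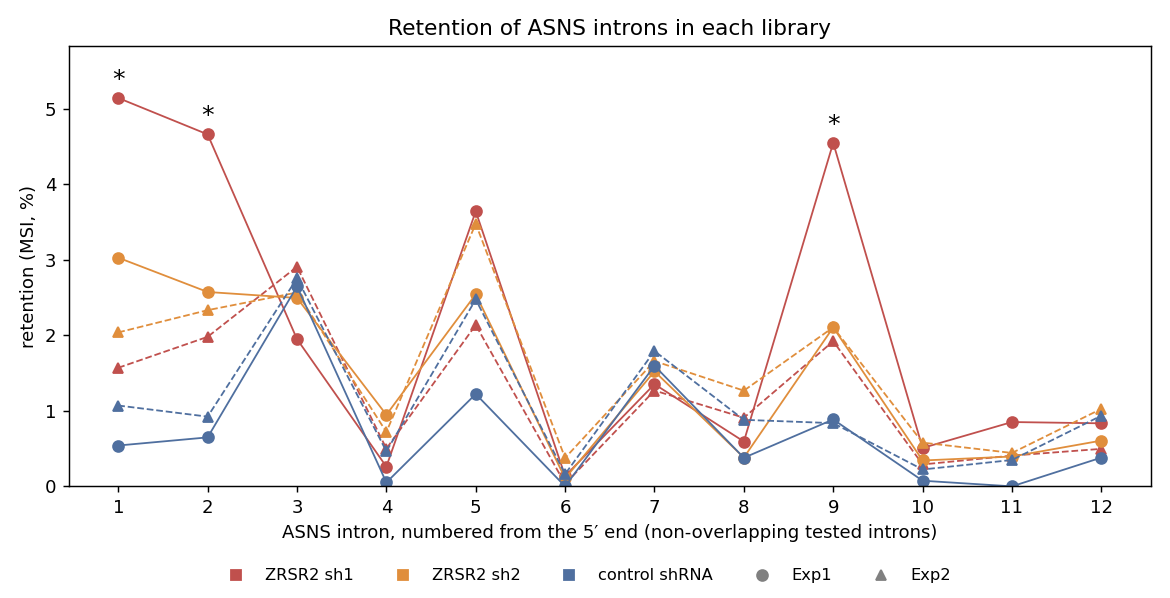
Retention (MSI, %) of the 12 non-overlapping tested ASNS introns in order from the 5′ end (x axis) in each library; colours give the group, circles with solid lines Exp1 and triangles with dashed lines Exp2, and asterisks mark introns more retained over both shRNAs at an edgeR adjusted p under 0.05. At introns 1, 2, 9, 10 and 11 all 4 knockdown libraries lie above both control libraries, and at the called introns 1, 2 and 9 the first sh1 library stands at 5.14%, 4.66% and 4.55%.

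PHGDH had a more retained intron at chr1:119727103-119734633, at 3.10% and 1.24% with sh1 and 1.04% and 0.897% with sh2, against 0% and 0.242% in control cells. The boundary reads were few, 33 and 15 with sh1 and 14 and 13 with sh2, against 0 and 3 in the control, and the covered share of the intron was 96.4% to 100% after knockdown, against 45.2% and 60.4% in the control. The edgeR adjusted p was 0.0329 over both shRNAs and 0.00605 with sh1. The TRIB3 intron at chr20:381501-382432 was retained at 0.582% and 0.282% with sh1 and 0.759% and 0.519% with sh2, against 0.172% and 0.128% in control cells. It was called with sh2 (log2 fold change 2.03, SE 0.52, adjusted p 0.0391 by edgeR) and not over both shRNAs (0.0669), where the fit with a term for the experiment number called it (0.00742). That fit also called, with sh2 alone, the ASNS intron at chr7:97869180-97869777 (adjusted p = 0.00647) and the one at chr7:97869814-97871718 (0.0123).

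These calls rest on few libraries. Over both shRNAs the count of more retained introns in the 10 genes was 0 without sh1 replicate 1, 0 without control replicate 1, 1 without sh2 replicate 1 and 2 without control replicate 2, and it was 4 without sh2 replicate 2 and 6 without sh1 replicate 2. With sh1 alone it was 0 without sh1 replicate 1 or control replicate 1 and 1 without control replicate 2. With sh2 alone it was 0 without sh2 replicate 1 or either control library and 1 without sh2 replicate 2. The log2 fold change of each of the 6 introns called in any contrast stayed positive over both shRNAs in all 6 of these fits.

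The 4 genes farthest above the control in spliced reads over both shRNAs, CHAC1, DDIT4, SLC7A11 and SESN2, had no called intron. The DDIT4 introns were retained at 4.48% and 1.74% with sh1 and 6.07% and 3.63% with sh2, against 3.44% and 3.41% in control cells (chr10:72274061-72274156), and at 6.69% and 3.81% with sh1 and 6.06% and 2.33% with sh2, against 2.62% and 4.16% (chr10:72274422-72274694). The groups overlapped at both. The most retained tested intron of any kind in DDIT3, chr12:57517181-57517268, stood at 8.54% and 10.3% with sh1 and 9.28% and 8.87% with sh2, against 8.96% and 8.42% in control cells, and its other intron, chr12:57517754-57520417, at 5.30% and 2.94% with sh1 and 3.87% and 3.76% with sh2, against 3.10% and 3.36%. The ATF4 intron (chr22:39521672-39521772) stood at 2.11% and 2.77% with sh1 and 2.46% and 3.07% with sh2, against 2.73% and 3.99% in the control.

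Of the SLC7A11 introns, chr4:138179395-138180640 was the 1 intron of the 59 with all knockdown libraries below the controls, at 0% and 0.541% with sh1 and 0.889% and 1.61% with sh2, against 2.78% and 3.57%, on 0 to 7 boundary reads a library (edgeR adjusted p 0.888). The most retained SLC7A11 intron, chr4:138185245-138214584, stood at 1.91% and 1.80% with sh1 and 1.499% and 1.54% with sh2, against 4.55% and 1.39%. In SESN2 the smallest p was at chr1:28271872-28272283, at 1.33% and 1.01% with sh1 and 1.82% and 1.42% with sh2, against 0.657% and 0.401% in control cells, with an unadjusted edgeR p of 0.033 and an adjusted p of 1. The most retained SESN2 intron, chr1:28272794-28273357, ranged over 0.719% to 10.1% after knockdown, against 6.42% and 3.38%. Another TRIB3 intron, chr20:388302-391286, stood at 0.937% and 0.431% with sh1 and 0.550% and 0.448% with sh2, against 0.260% and 0.0539% (edgeR adjusted p 0.348). A PHGDH interval used by 12 to 23 spliced reads a library, chr1:119740519-119742806, stood at 11.1% to 22.2% after knockdown, against 4% and 2.56% (edgeR adjusted p 1). CHAC1 had 0 to 5 boundary reads at either end of its intron (chr15:40954264-40955372) in any library, and NUPR1 had 0 to 3 at chr16:28537670-28538005 and 0 at chr16:28538210-28538795, too few to compare.

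Genes around the 10 in the same pathway were described through 9 lists with 79 genes, of which 76 had spliced reads to sum and passed the filter. Of these 76, 13 had all 4 knockdown libraries above both controls, where the background was 10%, and 4 had all below (EIF2B1, EIF2B2, EIF2B4 and SDF2L1, named here after their values were seen), where it was 9.5%. An unadjusted edgeR p under 0.05 was reached by 7 (9.21%), all higher, where 4.41% of all genes were higher and 8.25% in either direction, and edgeR called 0 after adjustment. The median log2 fold change of the 76 was 0.047. None of the 796 introns tested in 73 of these genes was more or less retained at an edgeR adjusted p under 0.05, against 0.33% and 0.0209% of all introns.

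The genes that set off the response had small fold changes. The 5 eIF2 kinases and sensors had log2 fold changes of -0.22 to 0.32, with EIF2AK3 (PERK) at 14.1 and 13.3 CPM with sh1 and 11.3 and 12.5 CPM with sh2, against 10.7 and 9.62 CPM in control cells (0.32, SE 0.18), and GCN1, a partner of GCN2, at the low end (-0.22, SE 0.17). The 8 subunits of eIF2 and eIF2B had a median of -0.20, with EIF2B2 at -0.36 (SE 0.19) and EIF2S3 at 0.014 (SE 0.13), and 3 of the 8 lay below both controls in all knockdown libraries, where the background was 9.5%. In the list of the eIF2 phosphatase and its feedback, PPP1R15A (GADD34), which brings the phosphatase to eIF2, stood at 33.1 and 27.4 CPM with sh1 and 38.2 and 25.9 CPM with sh2, against 19.95 and 22.8 CPM in the control (0.54, SE 0.21, unadjusted edgeR p 0.037, adjusted p 0.572). DNAJC3, an inhibitor of eIF2 kinases, was at -0.18 (SE 0.23). Of the 7 bZIP partners 4 could be tested, with log2 fold changes of 0.12 to 1.07 and a median of 0.40. The only one of them at a mean of 10 CPM or more was NFE2L2 (NRF2), the factor of the antioxidant response. It had 20.5 and 17.1 CPM with sh1 and 13.99 and 14.8 CPM with sh2, against 13.3 and 12.9 CPM (0.33, SE 0.17, edgeR adjusted p 0.641).

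Among the targets, 2 genes of the lists, CTH and HERPUD1, were called by DESeq2 with 1 of the shRNAs and 0 over both. CTH, which makes cysteine from cystathionine, stood at 29.2 and 19.3 CPM with sh1 and 11.3 and 11.4 CPM with sh2, against 10.4 and 11.5 CPM in control cells. DESeq2 called it with sh1 (adjusted p = 0.0121) and between sh1 and sh2 (0.0238), and the sh2 libraries lay among the controls. The other named genes of amino acid synthesis were ASS1 (0.61, SE 0.31), at 48.9 CPM in the first sh2 library, and GOT1 (-0.23, SE 0.34), and the 12 genes had a median log2 fold change of 0.13. The amino acid transporters had a median of 0.045, from SLC38A1 at -0.20 (SE 0.15) to SLC38A2, a neutral amino acid carrier, at 0.92 (SE 0.53). SLC38A2 measured 191 and 185 CPM with sh1 and 49.6 and 156 CPM with sh2, against 40.9 and 106 CPM in the control, so the groups overlapped.

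HERPUD1, a protein of endoplasmic-reticulum-associated degradation, stood at 20.5 and 21.1 CPM with sh1 and 30.0 and 37.8 CPM with sh2, against 9.92 and 17.8 CPM in control cells. DESeq2 called it with sh2 (adjusted p = 0.0137) and gave 0.0628 over both shRNAs, where the edgeR adjusted p was 0.569. Of the 15 genes of stress output, 5 had all knockdown libraries above both controls, where the background was 10%, and 4 had an unadjusted edgeR p under 0.05, all higher, where it was 4.41%. Their median log2 fold change was 0.42, beside -0.010 over all genes tested. That median is the value of ADM2, which was barely detected, at group means of 0.326 to 0.487 CPM. Besides HERPUD1, the 4 with an unadjusted edgeR p under 0.05 were VLDLR, GADD45A and SESN1, named after their values were seen, and XPOT, the tRNA exporter, was the fifth of those above both controls. GDF15 (-0.044), SQSTM1 (-0.33) and MAP1LC3B (-0.088), also named after their values were seen, lay below 0. VLDLR was barely detected, at means of 0.436 CPM with sh1 and 0.360 CPM with sh2, against 0.105 CPM in the control. DESeq2 gave it no adjusted p over both shRNAs. TNFRSF10B, the death receptor DR5, a target of CHOP, was at -0.42 (SE 0.28), with 29.0 and 19.4 CPM with sh1 and 10.9 and 12.6 CPM with sh2, against 28.8 and 16.4 CPM. The 12 genes of the other arms of the unfolded protein response had a median of -0.10, from the co-chaperone SDF2L1 at -0.53 (SE 0.26) to the sensor kinase ERN1 (IRE1) at 0.57 (SE 0.28). The 7 oxidative stress genes had a median of 0.024, with GCLM, a subunit of the glutathione synthesis enzyme, at 63.7 ± 6.19 CPM with sh1 and 55.4 ± 3.52 CPM with sh2, against 47.9 ± 2.14 CPM in the control (0.31, SE 0.14, edgeR adjusted p 0.600), and the quinone reductase NQO1 at -0.36 (SE 0.32).

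**Figure D5:**
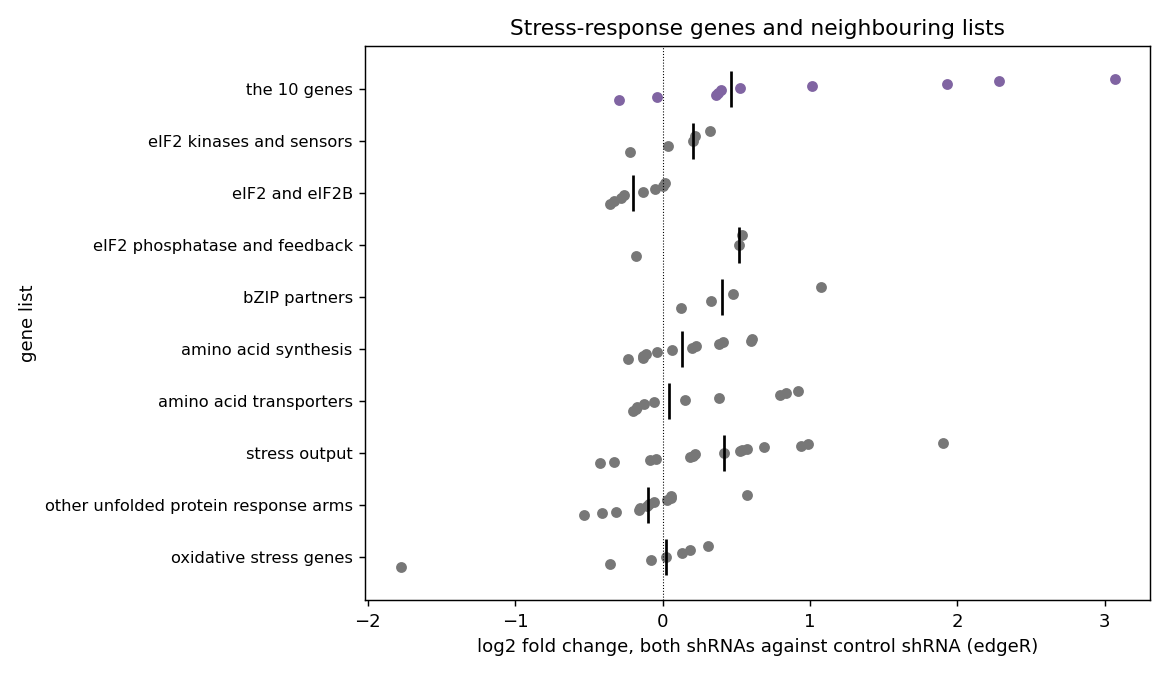
Log2 fold change over both shRNAs against control shRNA (x axis, edgeR) of the 10 genes and of each gene in the 9 lists; each point is a gene and each bar the median of its row. The 10 genes have a median of 0.46, and the row of eIF2 and eIF2B a median of -0.20.

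The mean of the 10 genes' standardised log2 levels was 0.86 and -0.20 with sh1 and 0.65 and 0.12 with sh2, against -0.51 and -0.92 in control cells, so that Exp1 was above Exp2 in each group. As a description, the 3 genes outside the lists whose log2 CPM followed this mean most closely over the 6 libraries, among 8265 genes at a mean of 10 CPM or more, were SCARB2 (Pearson r 0.996), SDHAF2 (0.992) and PITRM1 (0.990). SCARB2, a lysosomal membrane protein, stood at 48.4 and 33.7 CPM with sh1 and 44.2 and 37.4 CPM with sh2, against 28.9 and 26.8 CPM in control cells. PITRM1, a peptidase of the mitochondrial matrix, stood at 138 and 105 CPM with sh1 and 128 and 114 CPM with sh2, against 100.1 and 94.9 CPM in control cells. The 6 points share their library depths and experiment numbers, and with so few points many genes reach a high r.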

How the data were processed

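RNA-seq libraries of K562 cells were compared in 3 groups of 2. Per the labels, polyA RNA was selected and made into libraries with a NEBNext Ultra kit; the aligner and counting program are not named in the labels. The authors deposited, for each library and intron, counts of boundary and spliced reads, a covered fraction and the percent MSI, called retention here. The submitters' processing notes name hg19, but 95.6% of introns lay inside a gene of the RefSeq GRCh38.p14 table, against 62.6% and 62.9% when shifted by 100000 nt, so positions are read as GRCh38, with starts counted from 1.

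Spliced counts were summed per gene over non-overlapping introns, leaving out 2808 introns whose counts repeat those of another gene's intron within 500000 nt (mean squared difference over sum under 0.08, at 10 reads or more on average; none in the 10 genes; the limit came from earlier results of these data). Without a stated strand setting, reads of a gene and its antisense partner cannot be told apart. Genes were filtered with filterByExpr, scaled with TMM and tested with edgeR 4.0.16 (3 residual degrees of freedom), with DESeq2 1.42.0 as an alternative (4084 genes without an adjusted p over both shRNAs). Retention was tested on boundary against spliced counts within each library, and p-values were adjusted over all features. DESeq2 fits leaving out 1 library each were chosen after seeing the data. The scripts were tested on simulated data. Members and lists were chosen with earlier results of these data known; named introns were those called in any contrast and, per gene, the most retained and that with the smallest p, and named list genes were those called and, at 10 CPM or more, the largest and smallest fold change. Of the 5 genes whose levels were most like the mean of the members, 3 are given and the others are not reported here.

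Same-numbered libraries are paired by Exp1 and Exp2 in the titles: deviations from the group means correlated at 0.524 (sh1 and sh2), 0.319 (sh1 and control) and 0.351 (sh2 and control) over 12574 genes. Replicate libraries differed by 16.6 to 33.9 times the sampling noise, so none was a repeat deposit.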

Additional observations from a re-analysis of the deposited data

Results flagged for a closer look

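TRIB3 was marked because its ratio to the control differed in direction between the experiments in every library: it was 0.781 with sh1 and 0.896 with sh2 in Exp1, and 1.27 with sh1 and 1.48 with sh2 in Exp2. The difference between the experiments was not tested. The 2 control libraries, at 159 CPM in Exp1 and 54.2 CPM in Exp2, were farther apart than any knockdown pair (124 and 68.8 CPM with sh1, 142 and 80.5 CPM with sh2).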

How the results depend on the processing

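With DESeq2 in place of edgeR (0 genes in every contrast), 184 genes were called over both shRNAs, 128 with sh1, 182 with sh2 and 68 between the shRNAs, and the members called higher were 2, 4 and 2 in the 3 contrasts against control. Other scalings, no filter on low counts, repeated introns kept and the replicate block left the edgeR gene counts at 0. Leaving out 1 library gave 0 to 3 genes over both shRNAs, 0 to 1 with sh1, 0 to 9 with sh2 and 0 to 9 between the shRNAs, with 0 members. Introns called in either direction over both shRNAs were 471, and 212 with a covered fraction of at least 0.95, 92 with the smaller boundary count doubled and 269 to 589 with a library left out; with sh1 they were 405, and 161, 75 and 133 to 502; with sh2 384, and 48, 43 and 120 to 437; between the shRNAs 46, and 0, 0 and 24 to 49, with 10 at 50 reads or more. The replicate block gave 666 over both shRNAs, 567 with sh1, 594 with sh2 and 116 between the shRNAs. More retained introns of the 10 genes, 5 over both shRNAs, were 2 at 50 reads or more, 3 with no filter, 0 under the covered fraction, 1 under the smaller boundary and 0 to 6 with a library left out; with sh1 they were 5, and 2 at 50 reads or more, 0, 0 and 0 to 5; with sh2 2, then 0 under each of these 4 settings, 4 with the replicate block and 0 to 2. Among the 10 genes, their introns and the named list genes, the replicate block changed no call other than those of the TRIB3 and ASNS introns named with their retention. Uncalled log2 fold changes over both shRNAs turned in sign for TRIB3 with the replicate block (0.084) and, with the smaller boundary count doubled, for the introns of NUPR1 at 28537670 (0.13) and SLC7A11 at 138185245 (3.08). With a library left out they ran across 0 for TRIB3 (-0.61 to 0.94), NUPR1 (-0.72 to 0.33), EIF2S3 (-0.046 to 0.096), GOT1 (-0.68 to 0.45) and TNFRSF10B (-0.76 to 0.049), and for the introns of CHAC1 (-0.19 to 1.62), NUPR1 (-1.34 to 2.72), SESN2 at 28272794 (-1.57 to 0.39) and SLC7A11 at 138185245 (-1.49 to 0.21). The cause of these changes was not tested. Depth limits CHAC1 and NUPR1, at under 100 spliced reads a library, VLDLR, at a mean of 0.105 CPM in the control, and every retention below 1%.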
